A study of Mus musculus with 6 samples.

Results

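The genes described here are those of the glucocorticoid receptor, of the chaperones that hold it ready for hormone, of the importin that carries it into the nucleus and of the enzymes that switch its hormone on and off. They are 10 genes listed for their roles: Nr3c1, Nr3c2, Fkbp4, Ptges3, Stip1, Hsp90aa1, Hsp90ab1, Hsd11b1, Hsd11b2 and Ipo13. Of these 10 genes, 9 had a value in the table, out of 22180 genes in all, and Hsp90ab1 was not analysed here. Each gene was read from its brightest transcript cluster, which is a set of array probes summarised to one signal. The cells were haematopoietic stem cells (HSCs) sorted from mouse bone marrow at steady state as negative for lineage markers and Flt3 and positive for Sca1 and cKit. They came from 2 groups of 3 arrays each, WT and Chrm1-/-, the latter lacking the muscarinic acetylcholine receptor type 1, and the strain of both is labelled C57Bl/6. No treatment beyond the steady state, age, sex or number of mice per array is given in the sources used here, nor is the cell type in which Chrm1 was deleted. The title of the series places Chrm1 in the central nervous system, upstream of glucocorticoid signals that prime HSCs to leave the marrow, and the comparison asks how HSCs of the knockout differ at rest.

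The glucocorticoid receptor, encoded by Nr3c1, is a transcription factor that waits in the cytoplasm in a complex with the chaperone Hsp90. Newly made receptor is first bound by Hsp70, is passed to Hsp90 by the adaptor Stip1 (also called Hop), and is then stabilised in its hormone-binding state by the co-chaperone p23, the product of Ptges3. The immunophilins Fkbp4 and Fkbp5 compete for the same complex: Fkbp4 links it to transport towards the nucleus, while Fkbp5 lowers hormone affinity and is itself induced by the receptor. Inside the cell Hsd11b1 regenerates active glucocorticoid and Hsd11b2 inactivates it. In the blood system glucocorticoids act on cells from HSCs to lymphocytes, and their level follows a daily rhythm and stress.

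The 6 arrays had medians from 6.49 to 6.57 and upper quartiles from 7.79 to 7.88 on the log2 scale, and their number limits the precision. Of 12 HSC marker genes on the array, 12 passed the signal filter, and their mean ran from 9.07 to 9.14 over the wild type arrays and from 8.95 to 9.16 over the Chrm1-/- arrays. Kit read 10.90 and 10.88 as group means. Of markers of T and NK cells 1 of 8 passed the filter, of B cells 2 of 5, of granulocyte precursors 5 of 10, of monocytes and macrophages 5 of 7, of megakaryocytes and platelets 5 of 6 and of erythroid cells 6 of 6. Mpo, a granule enzyme also transcribed in early progenitors, read 11.35 and 11.27. The means of 9 marker lists overlapped between the groups. The targeted gene Chrm1 had group means of 7.52 ± 0.13 and 7.75 ± 0.35 (SD, n = 3). The sources used here do not state which part of Chrm1 these probes cover, and the level therefore checks nothing about the labels.

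Stip1 was lower on each Chrm1-/- array than on each wild type array, and the other 8 genes overlapped between the genotypes. Of the 9 genes, 6 had a mean log2 difference within 0.06 of 0. In the fit over 11094 genes, 0 of the 9 genes passed an adjusted p of 0.05 in limma, where 0.0% of all genes did. At an unadjusted p under 0.05 there was 1 gene of 9, Stip1, against 2.99% of all genes (1.4% higher and 1.6% lower in Chrm1-/-). The groups did not overlap for 1 gene of 9, again Stip1, against 5.79% of all genes (2.81% higher and 2.97% lower). In Chrm1-/- 6 genes had a higher mean and 3 a lower one, where the split over all genes was 50.0% and 50.0%, equal means included. The median log2 difference was 0.0033 against 0.0 over all genes. In sorted bulk RNA, fewer cells of a type and less RNA per cell cannot be told apart.

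**Figure D1:**
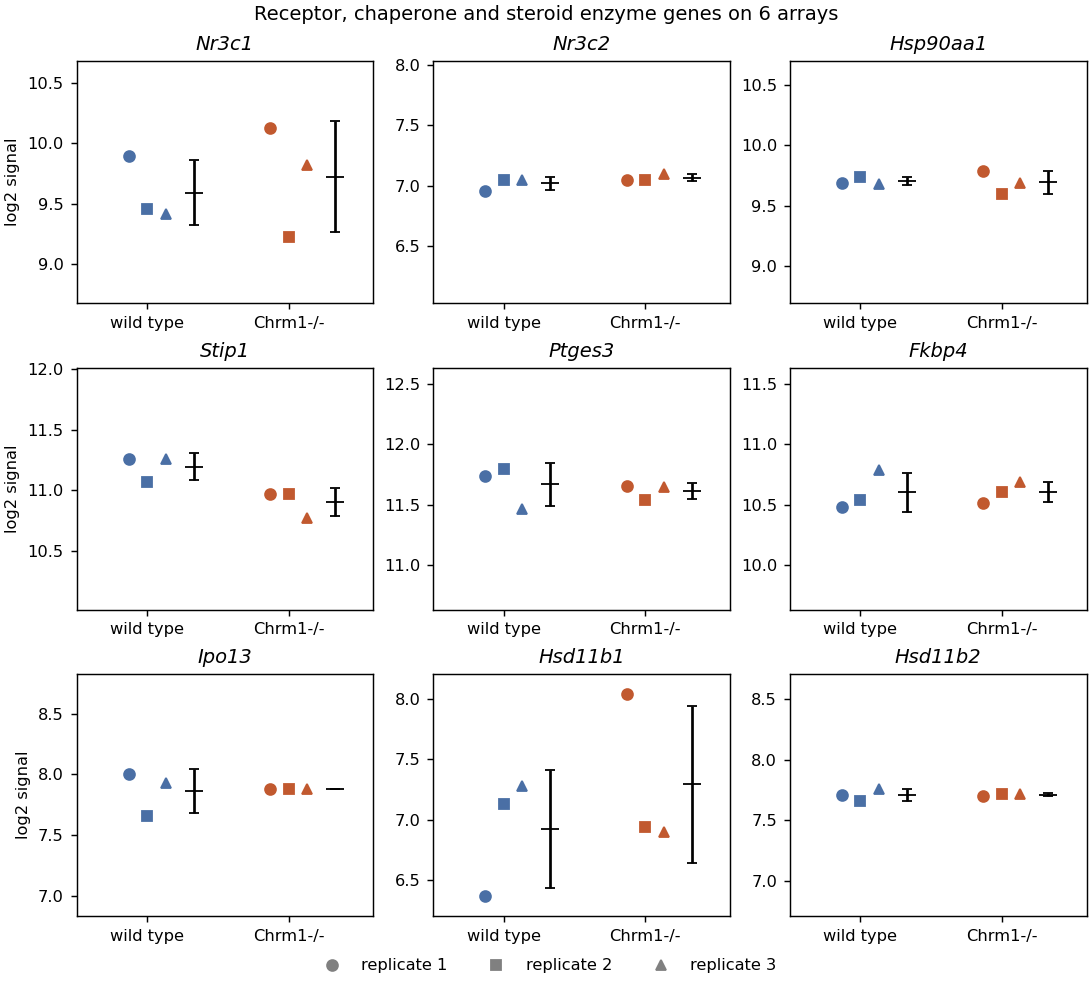
Log2 signal (vertical axis, each panel spanning the same 2 log2 units) of 9 genes on the 3 wild type and 3 Chrm1-/- arrays; symbols are replicates and the bars are mean and SD. The Stip1 signals of Chrm1-/- lie between 10.77 and 10.97, below the wild type ones at 11.07 to 11.26, while the other 8 genes overlap.

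Nr3c1 encodes the glucocorticoid receptor itself. It read 9.90, 9.46 and 9.42 on the wild type arrays and 10.13, 9.23 and 9.82 on the Chrm1-/- arrays. Both the highest and the lowest signal came from Chrm1-/- arrays, so the groups overlapped fully. The means were 9.59 ± 0.27 and 9.73 ± 0.46 (SD, n = 3), and the log2 difference of Chrm1-/- minus wild type was 0.13 ± 0.26 (SE). The 95% interval ran from 0.705-fold to 1.71-fold of wild type, so changes of the receptor transcript within these bounds are compatible with the 3 arrays a group. Without Chrm1-/- replicate 1 the difference was -0.068. Over the 6 arrays the SD of Nr3c1 was 0.34, above that of 74.3% of tested genes.

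Nr3c2 encodes the mineralocorticoid receptor, which also binds glucocorticoids. Its signals were 6.96, 7.05 and 7.05 in wild type and 7.05, 7.05 and 7.10 in Chrm1-/-. These values span 0.14 log2 units over 6 arrays and overlap. They lie just above the signal of 6.77 that was needed for testing, and the log2 difference was 0.047 ± 0.097 (SE). A further Nr3c2 cluster, of mean signal 5.43 in wild type and 5.36 in Chrm1-/-, and a cluster shared with a predicted gene, at 6.29 and 6.19, differed by -0.073 and -0.10, opposite in sign to the cluster used.

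Hsp90aa1 encodes the stress-inducible form of Hsp90, the chaperone that carries the receptor. It read 9.69, 9.74 and 9.68 in wild type and 9.79, 9.60 and 9.69 in Chrm1-/-. The Chrm1-/- arrays lay on both sides of the wild type ones. The log2 difference was -0.01 ± 0.10 (SE), with a 95% interval from 0.834-fold to 1.18-fold. Its SD over the 6 arrays, 0.064, was below that of most genes, with 4.25% of tested genes lower.

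Stip1, the adaptor that holds Hsp70 and Hsp90 together while the receptor is handed over, was the member with the clearest separation. Its signals were 11.26, 11.07 and 11.26 on the wild type arrays and 10.97, 10.97 and 10.77 on the Chrm1-/- arrays. Each Chrm1-/- signal was lower than each wild type signal, with a gap of 0.10 between the nearest values. The means were 11.20 ± 0.11 and 10.90 ± 0.12 (SD, n = 3). The log2 difference was -0.29 ± 0.12 (SE), or 0.816-fold, with a 95% interval from -0.58 to -0.0056. The unadjusted p in limma was 0.0468 and the adjusted p 0.996, so Stip1 did not pass over all genes. By p it ranked 298 of 11094 genes, and 18.2% of tested genes had a difference at least as large in size.

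The unadjusted p of Stip1 moved past 0.05 when single arrays were left out. In limma it was 0.115 without wild type replicate 1, 0.106 without wild type replicate 3, 0.0582 without Chrm1-/- replicate 1, 0.0639 without Chrm1-/- replicate 2 and 0.128 without Chrm1-/- replicate 3. Without wild type replicate 2, the array with the lowest Stip1 signal of its group, it was 0.0416, at a log2 difference of -0.36. The difference kept its sign in these 6 fits. Of the 12 HSC markers 4 were higher in Chrm1-/- and 8 lower or, for Ctnnal1 at 8.09 in both groups, equal. The 4 include Fgd5, which passed the signal filter only through its Chrm1-/- arrays. Of the 12, 1 had an unadjusted p under 0.05 in limma. This was Procr, a surface receptor used to purify HSCs, at 8.45 in wild type and 8.20 in Chrm1-/- (unadjusted p 0.0393 in limma). Cd68, a macrophage marker, was also lower without overlap, at 8.79, 9.0 and 10.25 in wild type and 8.47, 8.16 and 8.19 in Chrm1-/- (unadjusted p 0.0309 in limma). The macrophage markers did not move as one: of 5 tested monocyte and macrophage markers 2 were higher and 3 lower, and the list means overlapped. The part of Procr or Cd68 in the Stip1 result was not tested.

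Ptges3 encodes p23, which closes the Hsp90 complex around the receptor. Its signals were 11.74, 11.80 and 11.47 in wild type and 11.66, 11.54 and 11.65 in Chrm1-/-. Wild type replicate 3 was the lowest of the 6, so the groups overlapped. The log2 difference was -0.053 ± 0.13 (SE). Other clusters, 2 in number, are shared with a Ptges3 pseudogene and cannot be assigned to either. These 2 clusters differed by -0.083 and -0.16, with the same sign as the cluster used.

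Fkbp4 encodes the immunophilin FKBP52, which supports hormone binding and movement of the complex. It read 10.48, 10.54 and 10.79 in wild type and 10.52, 10.61 and 10.69 in Chrm1-/-. The Chrm1-/- values lay inside the wild type range. Its log2 difference was 0.0033 ± 0.13 (SE), and the 95% interval from -0.30 to 0.31 bounds it to between 0.81-fold and 1.24-fold. With each gene centred on its mean over the arrays, Hsp90aa1, Fkbp4, Ptges3 and Stip1 together averaged 0.043, 0.038 and 0.051 on the wild type arrays and -0.014, -0.069 and -0.049 on the Chrm1-/- arrays. Without Stip1, the 3 others averaged -0.012, 0.044 and -0.0022 in wild type and 0.0078, -0.066 and 0.028 in Chrm1-/-. The separation of the 4 gene average thus rested on Stip1.

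The promoters of the co-chaperones are shown because Stip1 stood apart from Fkbp4 and Ptges3 in the arrays. The sequences are the 250 bases before each gene's start in RefSeq's GRCm38.p6, 5′ to 3′ on the coding strand. Stip1 lies at chr19:7040027-7040276 (minus strand), Fkbp4 at chr6:128438657-128438906 (minus strand) and Ptges3 at chr10:128058732-128058981 (plus strand). Capitals mark letters searched on both strands. They are a CCAAT box, a TATA box (read as TATAAA) or a heat shock element pair, which heat shock factors bind. That pair was read as GAANNTTC or as TTCNNGAA.
Stip1: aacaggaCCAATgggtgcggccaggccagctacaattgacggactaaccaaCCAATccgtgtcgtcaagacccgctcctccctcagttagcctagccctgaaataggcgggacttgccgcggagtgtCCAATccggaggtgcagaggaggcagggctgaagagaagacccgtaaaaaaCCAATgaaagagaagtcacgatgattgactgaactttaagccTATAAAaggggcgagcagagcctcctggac
Fkbp4: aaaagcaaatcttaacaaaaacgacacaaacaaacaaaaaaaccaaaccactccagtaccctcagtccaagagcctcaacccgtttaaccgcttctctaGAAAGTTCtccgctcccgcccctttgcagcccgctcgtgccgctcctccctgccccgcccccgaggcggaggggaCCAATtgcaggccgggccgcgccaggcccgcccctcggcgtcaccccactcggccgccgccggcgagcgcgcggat
Ptges3: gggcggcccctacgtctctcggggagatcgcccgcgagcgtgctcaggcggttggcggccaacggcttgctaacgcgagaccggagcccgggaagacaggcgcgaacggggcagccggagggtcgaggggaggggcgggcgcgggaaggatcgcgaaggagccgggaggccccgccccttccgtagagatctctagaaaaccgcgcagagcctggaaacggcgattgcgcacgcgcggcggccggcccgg
The Stip1 window held 4 CCAAT boxes, a count that 0.84% of 32851 promoter windows reach, and a TATA box from base -30 to base -25. Over all windows of this length 33.8% held a CCAAT box and 12.4% a TATA box. The Fkbp4 window held 1 heat shock pair, from base -151 to base -144, and 1 CCAAT box, while the Ptges3 window held none of the 3 motifs. A heat shock pair was present in 12.8% of all windows. Of the 6 listed genes with a promoter in the table, 2 held a heat shock pair, Fkbp4 and Nr3c2, and 0 held the core of a glucocorticoid response element (ACANNNTGT), which 5.84% of all windows hold. These matches describe letters and not binding.

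Ipo13 encodes an importin that takes the receptor into the nucleus. Its signals were 8.0, 7.66 and 7.93 in wild type and 7.88 on each of the 3 Chrm1-/- arrays. The Chrm1-/- value lay inside the wild type range. The log2 difference was 0.017 ± 0.12 (SE), and the 95% interval ran from 0.82-fold to 1.25-fold.

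Hsd11b1, which regenerates active glucocorticoid from its inert form, varied most among the 9 genes. It read 6.37, 7.13 and 7.28 in wild type and 8.04, 6.94 and 6.90 in Chrm1-/-. Chrm1-/- replicate 1 was the highest and wild type replicate 1 the lowest, while the other 4 arrays lay between 6.90 and 7.28. The log2 difference was 0.37 ± 0.39 (SE), with a 95% interval from 0.672-fold to 2.47-fold. It was -0.0067 without Chrm1-/- replicate 1 and 0.088 without wild type replicate 1, so the difference rested on these 2 arrays. On Chrm1-/- replicate 1 the marker lists of mast cells and basophils (7.24, others 6.33 to 6.98), of erythroid cells (8.58) and of T and NK cells (6.76) also had their highest mean. The markers of mast cells and basophils did not move as one: of the 2 that passed the signal filter, Mcpt8 was highest there at 10.56 and Cpa3 read 11.26, against up to 11.57 elsewhere. Of T and NK cell markers, Nkg7, the 1 past the filter, was lowest on Chrm1-/- replicate 1 at 10.15. Cd3g, under the filter, was highest there at 7.16. Of erythroid markers, Car1 and Klf1 were highest there, at 11.42 and 8.04, and Slc4a1 was lowest at 7.45. The part of these markers in the Hsd11b1 result was not tested.

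Hsd11b2, the enzyme that inactivates glucocorticoids, was nearly constant. Its signals were 7.71, 7.66 and 7.76 in wild type and 7.70, 7.72 and 7.72 in Chrm1-/-. These values span 0.10 log2 units and overlap, and 0.793% of tested genes had a smaller SD over the 6 arrays. The log2 difference was 0.0033 ± 0.096 (SE), with a 95% interval from 0.853-fold to 1.18-fold.

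**Figure D2:**
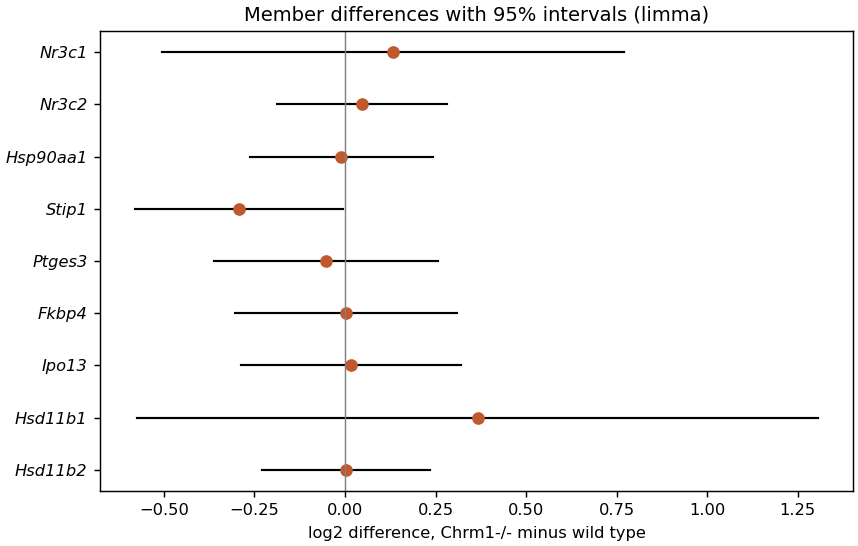
Log2 difference of Chrm1-/- minus wild type (horizontal axis) for 9 genes, with limma's 95% intervals as lines. The intervals are unadjusted; that of Stip1 runs from -0.58 to -0.0056, and the intervals of the other 8 genes include 0.

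Pairs of opposing or sister genes were set against each other within each array, which shows unequal change and not which gene changed. Fkbp5, the immunophilin that lowers hormone affinity, had group means of 7.32 ± 0.18 and 7.35 ± 0.11 (SD, n = 3). The log2 signal of Fkbp4 minus Fkbp5 was 3.32, 3.02 and 3.50 in wild type and 3.04, 3.33 and 3.40 in Chrm1-/-, a shift of -0.023. Nr3c1 minus Nr3c2 shifted by 0.087, from 2.57 ± 0.32 to 2.66 ± 0.45 (SD, n = 3). Hsd11b1 minus Hsd11b2 shifted by 0.36, from -0.78 ± 0.48 to -0.42 ± 0.66 (SD, n = 3). Two-sided exact permutation tests gave p of 1.0, 0.9 and 0.6, and 1.0 for each of the 3 after Benjamini-Hochberg adjustment. The smallest p that 3 arrays against 3 allow is 0.1. The pair of Hsp90aa1 and Hsp90ab1 was not analysed here.

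Of 132 tested genes in 11 pathway lists, each gene counted once, 67 had a higher and 65 a lower or equal mean in Chrm1-/-. Their median log2 difference was 0.0033. Without the members, 123 genes were tested, and 1 of them, 0.813%, had an unadjusted p under 0.05 in limma against 2.99% of all genes. That gene was Zbtb16, which reached the signal filter only through its Chrm1-/- arrays. Over these lists 0 genes passed the adjusted threshold in limma. Groups did not overlap for 3 higher and 3 lower genes of the 132, Stip1 included, against 2.81% higher and 2.97% lower of all genes.

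**Figure D3:**
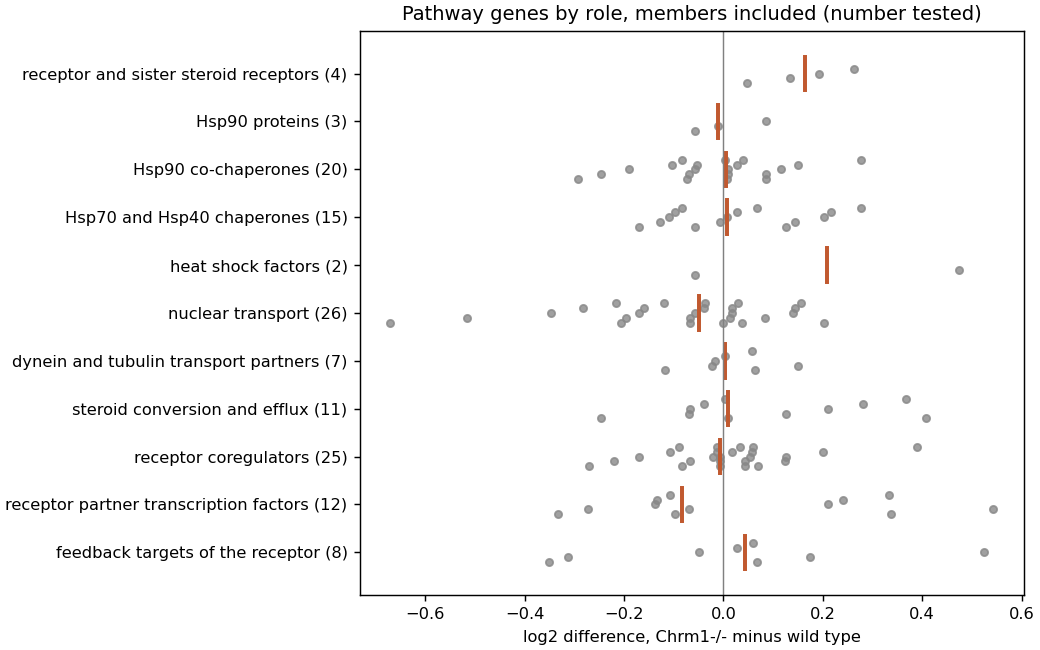
Log2 difference of Chrm1-/- minus wild type (horizontal axis) for tested genes of 11 pathway lists (rows, with the number tested); grey points are genes and orange bars are list medians. Medians lie between -0.083 and 0.21, the latter over 2 genes.

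In the list of Hsp90 co-chaperones 20 genes were tested, 11 higher and 9 lower, with a median log2 difference of 0.005. Of these, 1 gene, Stip1, had an unadjusted p under 0.05 in limma. Unc45a, a myosin and steroid receptor chaperone and among the 11 higher genes, differed by 0.28 ± 0.23 (SE) on the log2 scale. Its wild type mean, 6.71, lay under the signal needed for testing. Unc45a was tested only through its Chrm1-/- mean of 6.99, from arrays at 6.61, 6.89 and 7.47. The immunophilin Ppid, which competes with Fkbp4 for Hsp90, differed by -0.10 ± 0.11 (SE). Pih1d1, of a co-chaperone complex that assembles large machines, differed by -0.19 ± 0.20 (SE). The list also holds Ppp1r10, a phosphatase regulator and not an established Hsp90 co-chaperone, which differed by 0.15 ± 0.14 (SE). Of 3 tested Hsp90 proteins 1 was higher and 2 lower. Hsp90b1, the Hsp90 of the endoplasmic reticulum, differed by -0.057 ± 0.099 (SE) and Trap1, that of mitochondria, by 0.087 ± 0.14 (SE).

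Of 15 tested Hsp70 and Hsp40 genes, the partners upstream of Hsp90, 8 were higher and 7 lower, with 0 at an unadjusted p under 0.05 in limma. Dnajc7, a co-chaperone that like Stip1 bridges Hsp70 and Hsp90, read 10.39, 10.39 and 10.33 in wild type and 10.57, 10.49 and 10.66 in Chrm1-/-. Its groups did not overlap, with Chrm1-/- higher by 0.20 ± 0.10 (SE) on the log2 scale and an unadjusted p of 0.0916 in limma. Hspa4l, a nucleotide exchange factor of Hsp70, differed by 0.28 ± 0.15 (SE), Hsph1, another of that family, by -0.17 ± 0.11 (SE) and Bag3 by 0.22 ± 0.17 (SE). The constitutive Hsp70 gene Hspa8 read 12.58 and 12.59 as group means. Of the heat shock factors, which switch on chaperone genes, Hsf2 differed by 0.47 ± 0.43 (SE), with Chrm1-/- replicate 3 at 8.65 and the other 5 arrays between 6.94 and 7.36, and Hsf4 by -0.057 ± 0.11 (SE).

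The inducible Hsp70 genes Hspa1a and Hspa1b, singled out here after their values were seen, stood apart on 1 wild type array. Hspa1b read 5.37, 11.11 and 5.79 in wild type and 5.91, 5.73 and 5.35 in Chrm1-/-. Hspa1a read 4.90, 8.72 and 4.95 in wild type and 5.25, 4.99 and 4.85 in Chrm1-/-. On the other 5 arrays both lay under the signal of 6.77 needed for testing, so no fold is given. Their mean signals were also under the filter, and they were not tested. The proteins are near-identical copies, so the probes may share signal, and another cluster annotated to both genes read 6.68 on that array and 6.12 to 6.63 on the others. Other heat shock genes differed less there. Hsph1 was highest on wild type replicate 2, at 8.75 against 8.60 on the next array. Dnajb1 read 9.38 on wild type replicate 2 and 9.48 on Chrm1-/- replicate 1, and Hsp90aa1 read 9.74 and 9.79 on those arrays.

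**Figure D4:**
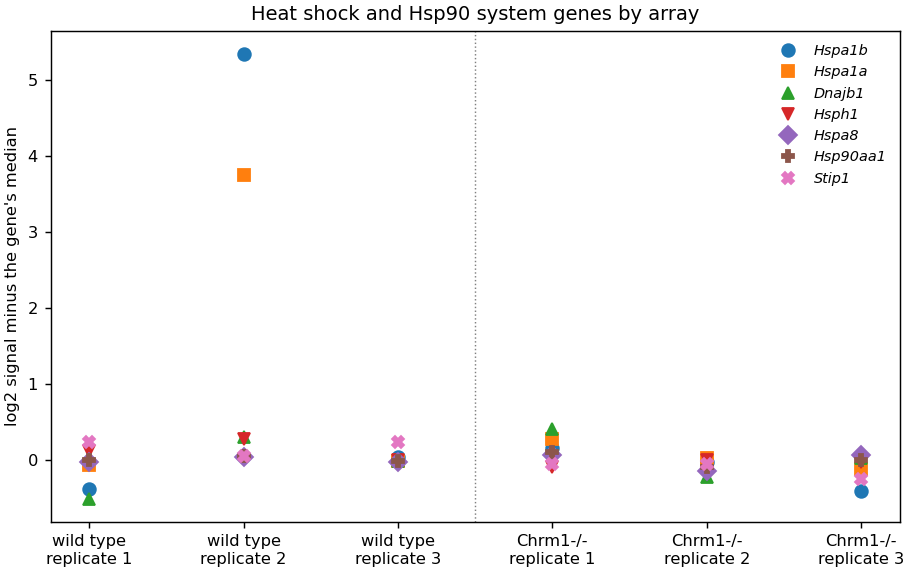
Log2 signal minus the gene's median over 6 arrays (vertical axis) for 7 genes of the Hsp70 and Hsp90 system on each array (horizontal axis). Hspa1b at 11.11 and Hspa1a at 8.72 on wild type replicate 2 rise far above their other arrays, while Hsp90aa1 stays between 9.60 and 9.79.

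Of 26 tested nuclear transport genes 10 were higher and 16 lower or equal, with 0 at an unadjusted p under 0.05 in limma. Their median log2 difference was -0.048, which ran from -0.074 to 0.0008 on leaving out arrays. Nup153, a pore protein, read 10.37, 10.42 and 9.94 in wild type and 9.94, 9.86 and 9.89 in Chrm1-/-, which touch at 9.94; its log2 difference was -0.35 ± 0.15 (SE). Tnpo2, an import receptor, differed by -0.17 ± 0.10 (SE) without overlap, and Ipo8, an importin, by -0.67 ± 0.40 (SE) with overlap. The cluster used for the importin alpha gene Kpna6 differed by -0.28 and its other cluster by 0.29. Of 7 tested dynein and tubulin partners, the motor that moves the complex along microtubules, 4 were higher and 3 lower, with Dctn2 at -0.12 ± 0.11 (SE) and Dctn1 at 0.15 ± 0.15 (SE).

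Steroid conversion and efflux genes had 7 of 11 higher and 4 lower, with a median log2 difference of 0.01 and 0 at an unadjusted p under 0.05 in limma. Srd5a3, a reductase of the steroid reductase family, read 7.20, 7.37 and 7.54 in wild type and 7.18, 7.16 and 7.03 in Chrm1-/-. Its groups lay apart by 0.02, with a log2 difference of -0.25 ± 0.13 (SE). Hsd17b11, a hydroxysteroid dehydrogenase of lipid droplets, differed by 0.41 ± 0.24 (SE), the drug and steroid pump Abcb1a by 0.21 ± 0.18 (SE) and Hsd17b12 by 0.13 ± 0.19 (SE). H6pd, which supplies the cofactor for Hsd11b1, read 7.09 ± 0.082 and 7.02 ± 0.064 (SD, n = 3).

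Of 4 tested genes of the receptor and its sister steroid receptors, 4 were higher, with a median log2 difference of 0.16, or 0.054 without wild type replicate 3, and 0 at an unadjusted p under 0.05 in limma. The oestrogen receptor genes Esr1 and Esr2 differed by 0.26 ± 0.27 (SE) and 0.19 ± 0.12 (SE), and the progesterone receptor gene Pgr lay under the filter. Receptor coregulators had 12 of 25 higher and 13 lower, with the arginine methyltransferase Carm1 at -0.22 ± 0.14 (SE), the acetyltransferase Crebbp at 0.20 ± 0.14 (SE), the histone methyltransferase Ehmt1 at -0.27 ± 0.24 (SE) and the chromatin remodelling subunit Smarcc1 at -0.17 ± 0.15 (SE). Partner transcription factors had 5 of 12 higher and 7 lower. Among them Stat5a, a cytokine-activated factor that binds the receptor, read 8.15, 8.46 and 8.50 in wild type and 8.84, 8.64 and 8.64 in Chrm1-/-, without overlap, at an unadjusted p of 0.0505 in limma. Ets1 differed by -0.27 ± 0.13 (SE), Foxo1 by 0.33 ± 0.20 (SE) and Fos by 0.21 ± 0.17 (SE). By limma's unadjusted p, 0 genes of either list were under 0.05.

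Of 8 tested feedback targets, genes that the receptor switches on or off, 5 were higher and 3 lower, and 1 had an unadjusted p under 0.05. This was Zbtb16, a zinc finger factor induced by glucocorticoids, at 6.53, 6.83 and 6.82 in wild type and 7.53, 7.10 and 7.12 in Chrm1-/-. Its log2 difference was 0.52 ± 0.17 (SE), with an unadjusted p of 0.0189 and an adjusted p of 0.996 in limma. Its wild type mean, 6.73, lay under the signal of 6.77 needed for testing. Zbtb16 was tested only through its Chrm1-/- mean of 7.25. The count of 1 was 0 without wild type replicate 1 and with the replicate block, and 2 without Chrm1-/- replicate 2. With the stricter filter the count was 0 as well, but only 1 feedback target was tested there, and Zbtb16 was not. The clock gene Per1 differed by 0.17 ± 0.11 (SE), the cell cycle inhibitor genes Cdkn1c by -0.31 ± 0.17 (SE) and Cdkn1a by -0.35 ± 0.25 (SE).

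Stip1 and Chrm1 lie 1.64 Mb apart on chromosome 19 in RefSeq's GRCm38.p6, with 22 protein-coding genes between them. Of 200 tested genes within 10 Mb of Chrm1, 97 were higher and 103 lower or equal, with a median log2 difference of -0.0033. Of the 200, 8 (4.0%) had an unadjusted p under 0.05 in limma against 2.99% of all genes. Stip1 ranked 8 among these by p. Dnajc4, an Hsp40 family gene near Stip1, read 7.90, 9.06 and 9.33 in wild type and 6.91, 7.41 and 7.40 in Chrm1-/-. It differed by -1.52 ± 0.39 (SE) on the log2 scale. Between Dnajc4 and Stip1 lie Nudt22, Trpt1 and Fermt3, which differed by -0.33 ± 0.30, 0.22 ± 0.34 and -0.15 ± 0.32 (SE). Between Stip1 and Chrm1, 14 genes were tested, 7 higher and 7 lower, and 2 had an unadjusted p under 0.05. These 2 were Naa40, an acetyltransferase of histone tails, at -0.98 ± 0.27 (SE) in the cluster used and at -0.98 in its other cluster, where the groups overlapped, and Atl3, a membrane fusion protein of the endoplasmic reticulum, at 0.56 ± 0.16 (SE). Rab1b, a small GTPase farther from Chrm1, differed by 1.19 ± 0.37 (SE), with groups that overlapped. Its wild type mean, 6.57, lay under the signal needed for testing, which it reached only through its Chrm1-/- mean of 7.77. The count of 8 was 5 without wild type replicate 2 and 14 without Chrm1-/- replicate 1. Whether the position near the targeted gene bears on Stip1 was not tested.

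**Figure D5:**
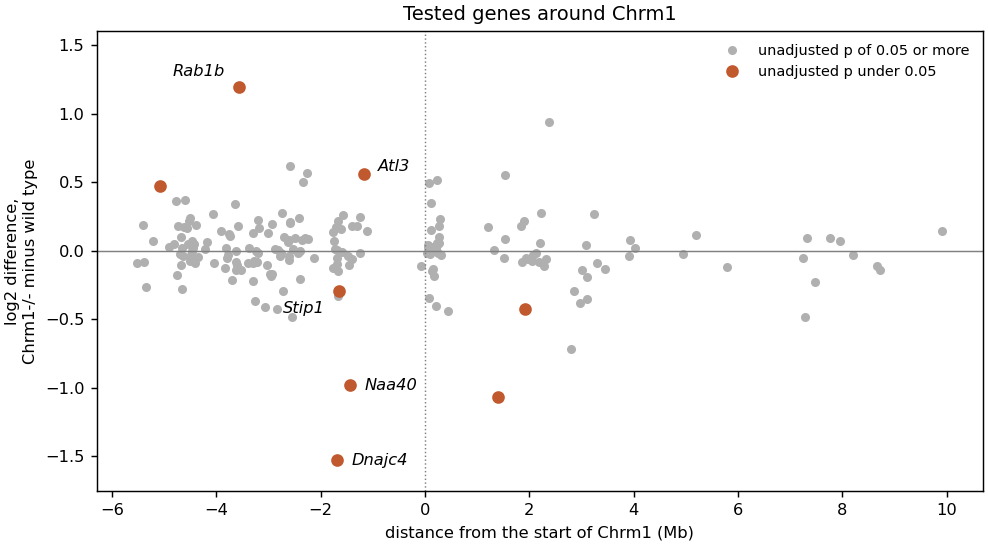
Log2 difference of Chrm1-/- minus wild type (vertical axis) of tested genes by distance of their start from that of Chrm1 in Mb (horizontal axis, negative towards lower coordinates); orange points have an unadjusted p under 0.05. The 8 orange genes include Stip1 at -0.29, Dnajc4 at -1.52 and Naa40 at -0.98 as lower and Atl3 at 0.56 and Rab1b at 1.19 as higher.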

How the data were processed

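Gene expression was measured on 6 Affymetrix mouse gene arrays, 3 WT and 3 Chrm1-/-, grouped by sample title. The authors used Affymetrix's own software, per the series design text, and the sources used here name neither its version nor its summarization and normalization. The range of the deposited values, 3.02 to 13.67, is that of log2 signals, and they were used as such. No label says whether replicates came from separate mice: p-values then reflect the spread between these samples alone, which may be technical.

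Of 41345 transcript clusters 23521 had 1 gene symbol, 1814 several and 16010 none in the platform annotation; taking the brightest cluster per gene gave 22180 genes. A gene was tested where its mean reached 6.77, the median over genes, which kept 11094 genes. The test was limma 3.58.1 in R 4.3.3 (lmFit and eBayes, two-sided, Benjamini-Hochberg over these genes). The members and lists were chosen with earlier results of these data known. Named genes are the members, up to 4 others of smallest unadjusted p per list and around Chrm1, and the 3 genes closest in pattern to Nr3c1 and Stip1. Fkbp5 enters through its pair with Fkbp4, and Hspa1a, Hspa1b, Hspa8, Dnajb1, H6pd, Pgr, Nudt22, Trpt1, Fermt3 and the marker genes were named outside this rule, after their values were seen. Predicted genes were not named. On simulated data for the Chrm1-/- comparison, with 11094 genes, limma recovered 16% of genes at 1.5-fold, 42% at 2-fold and 88% at 4-fold, out of 50 genes per size. These genes and 50 more at 8-fold were changed together, and many changed genes ease the adjusted threshold for each. The rates therefore do not hold for a gene that changes alone. Alternatives covered filters, normalization, clusters, variance models, array weights, the replicate block and leaving out arrays. Python 3.11.15 with pandas 2.3.3 drew up the tables.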

Additional observations from a re-analysis of the deposited data

How the results depend on the processing

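Over the 15 alternatives to the limma fit, 0 members passed the adjusted threshold, as in the reported fit. The number with an unadjusted p under 0.05, 1 as reported, was 0 with the filter at the 75th percentile, 0 with a further quantile normalization, 0 with array weights and 0 with the replicate block, and ran from 0 to 1 on leaving out arrays. For Stip1 the unadjusted p in limma ran from 0.0208 to 0.103 over the other settings, highest with the replicate block, and its log2 difference from -0.30 to -0.26. Same-numbered arrays did not deviate together from their group means (correlations of -0.031, 0.0088 and -0.011 over 11094 genes), so the numbers were not taken as pairs, and the block changed no call at the adjusted threshold.

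Differences near 0 changed sign. With a further quantile normalization Hsp90aa1 moved to 0.016 and Hsd11b2 to -0.0006, and the cause was not tested. Median centring subtracts a constant per array, and so shifts the differences of all genes alike. It moved the median over all genes from 0.0 to -0.0067, and Fkbp4 and Hsd11b2 from 0.0033 to -0.0033 each. On leaving out arrays the log2 difference ran from -0.068 to 0.38 for Nr3c1, -0.058 to 0.097 for Fkbp4, -0.15 to 0.012 for Ptges3, -0.058 to 0.037 for Hsp90aa1, -0.0067 to 0.56 for Hsd11b1, -0.022 to 0.028 for Hsd11b2 and -0.085 to 0.085 for Ipo13. The within-array shifts ran from -0.15 to 0.087 for Fkbp4 minus Fkbp5, -0.12 to 0.33 for Nr3c1 minus Nr3c2 and -0.017 to 0.56 for Hsd11b1 minus Hsd11b2. Of all genes, 1 passed the adjusted threshold without moderation, 1 without wild type replicate 1 and 1 without Chrm1-/- replicate 3. The number of genes with an unadjusted p under 0.05 was 332 of 11094 (2.99%) as reported. It was 567 of 22180 (2.56%) with no filter and 169 of 5547 (3.05%) at the 75th percentile.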

Other observations

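Genes whose pattern over the 6 arrays lay closest to a member were found by the mean absolute difference of gene-centred log2 signals. Closest to Nr3c1 was Mbip, at 0.053, where the median tested gene lay at 0.33. Mbip read 9.37, 8.86 and 8.79 in wild type and 9.52, 8.67 and 9.39 in Chrm1-/-, high where Nr3c1 was high. Slc17a5 followed at 0.082 and Eme1 at 0.083. Closest to Stip1 were Ccl9 at 0.037, Gnl2 at 0.038 and Zfp691 at 0.04, where the median tested gene lay at 0.22. Ccl9, a chemokine gene, read 8.51, 8.31 and 8.52 in wild type and 8.25, 8.35 and 8.01 in Chrm1-/-, so its groups overlapped. Gnl2, a nucleolar GTPase of ribosome assembly, read from 10.27 to 10.52 in wild type and at most 10.23 in Chrm1-/-, without overlap.

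The rise of Hspa1b on wild type replicate 2 was among the largest gaps between the highest and the next array, a gap of 5.2 on the log2 scale that 3 of 22180 genes reach, Hspa1b included. For the gap of Hspa1a, 3.47, the number was 19 genes, Hspa1a included, 5 of them highest on wild type replicate 2. Gaps of at least 2 log2 units were found on each of the 6 arrays, with 17 genes highest on wild type replicate 2 and between 8 and 15 on each of the other 5.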
